A study of Danio rerio with 2 samples.

Results

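The cells described here are blood progenitors of the zebrafish caudal hematopoietic tissue that carried transcripts of MYB while nearly lacking globin and neutrophil transcripts. They were 92 of the 575 wells kept, out of 768 wells on 2 plates. A member was a well of the double or single sort class with at least 500 transcripts, 3 or more transcripts of MYB (ENSDARG00000053666), under 1% globin and under 0.5% of its transcripts from npsn, mmp13a, MMP9, LECT2 and lyz together. The animals of all groups were wild type, 5 days post fertilization, with a sort day of 6 given in the labels. The tail tissue was dissected and dissociated, and hematopoietic stem and progenitor cells were sorted 1 per well for CEL-seq2, which counts the 3′ ends of transcripts with molecular identifiers. Layouts gave each well as double, single or undefined without naming the markers, so what separates double from single is not known here. The plates, 20 and 21, are the replicates, and no label says that they came from separate animals, so p-values measure a spread that may be technical. The wells of plate 21 were assumed to be numbered along rows, and both plates share all 384 cell barcodes.

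The caudal hematopoietic tissue is a niche in the larval tail where immature blood cells multiply before they move to the kidney and thymus. MYB is a transcription factor that keeps definitive blood progenitors dividing and immature. TAL1 and its bridging partner LMO2 form a DNA-binding complex that blood stem cells need and that red cell progenitors also use with the GATA factor gata1a. Heme synthesis and globin come late in maturing red cells, after the transcription factor klf1, the erythropoietin receptor EPOR and membrane proteins such as RHAG.

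The members were compared with 3 other groups of kept wells, named by the same limits. The first was 131 wells with MYB at 3 or more and globin at 1% or more, called MYB-positive wells with globin. The second was 54 wells with neutrophil genes at 0.5% or more, called neutrophil-gene wells. The third was 125 wells with MYB under 3 and globin under 1%, called low-MYB low-globin wells. The remaining 173 wells, with MYB under 3 and globin at 1% or more, were not compared with members on their own. They entered the shared fit, the kept wells over which shares of members were taken, and the class difference of the other 4 groups. Counts were summed per plate, group and sort class into 20 sums, and levels are TMM-normalised CPM (counts per sum after scaling to equal library size) unless stated otherwise. Values per sum are always given for double wells of plate 20, single wells of plate 20, double wells of plate 21 and single wells of plate 21, and SDs are over these 4 sums. The wells were assigned by their own counts, so the 18 genes of the limits were left out of the tests. Genes that follow MYB or globin from cell to cell differ between these groups because of the choice of wells.

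Members held a median of 7.51 MYB transcripts (lowest 3, highest 33.1), of 12776 transcripts in all (2886 to 37786). MYB made up 0.0632% of the transcripts of members, against 0.0429% in MYB-positive wells with globin, 0.0150% in neutrophil-gene wells and 0.00796% in low-MYB low-globin wells. Globin made up a median of 0.504% (0.139 to 0.965), mostly from the embryonic globin genes hbae3 and HBE1 (ENSDARG00000045143). The median globin share of neutrophil-gene wells, which should not make globin, was 0.352% (plate 20) and 0.515% (plate 21). In members it was 0.482% (plate 20) and 0.536% (plate 21). At the MYB limit, 12 members held 3 transcripts, while 17 low-globin wells with 2 transcripts lay just outside. At the globin limit, 4 members lay between 0.929 and 0.965%, and 4 MYB-positive wells between 1.06 and 1.097% lay just outside. The highest share of neutrophil genes in a member was 0.4999%, and 7 MYB-positive low-globin wells with 1.12 to 10.4% lay outside. The members were chosen by these values, the transcripts of MYB, globin and neutrophil genes, which are therefore given as a description.

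Members were deep. Their median depth was 13267 transcripts on plate 20 and 12724 on plate 21, against 10549 and 16318 in MYB-positive wells with globin. It was 4840 and 6710 in neutrophil-gene wells and 4390 and 4427 in low-MYB low-globin wells. The sums of members held 416912, 246884, 534426 and 75608 counts, and all 20 sums between 24329 and 862957. A count of 3, taken as the floor, equals 3.48 to 123 CPM over the sums and 39.7 CPM in the 6 single members of plate 21. No member held over 5% muscle or epidermis transcripts, but 1 MYB-positive well with globin and 14 low-MYB low-globin wells did. That MYB-positive well, a double well of plate 20, held 249815 of the 688690 transcripts of its sum.

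TAL1 and LMO2, which the limits did not use, were found in 85 and 81 of the 92 members. TAL1 stood at 627, 657, 597 and 1058 CPM in members, against 606, 534, 726 and 707 CPM in MYB-positive wells with globin. LMO2 stood at 325, 259, 311 and 374 CPM in members, against 301, 270.3, 335 and 339 CPM in MYB-positive wells with globin. The groups overlapped for both genes, with log2 folds of 0.17 ± 0.21 for TAL1 and 0.02 ± 0.22 for LMO2 (SE, edgeR adjusted p = 0.759 and 1). In low-MYB low-globin wells, by contrast, TAL1 averaged 144 ± 69.1 and LMO2 78.6 ± 31.5 CPM, all below every sum of members. The log2 folds of members over those wells were 2.35 ± 0.24 for TAL1 and 2.02 ± 0.27 for LMO2 (edgeR adjusted p = 3.27e-07 and 1e-05). In neutrophil-gene wells TAL1 averaged 48.04 CPM, and LMO2 was at 0 in both sums of single wells and at 7.99 and 40.03 CPM in the double wells. With every well thinned to 2500 transcripts, 68.5% of members held a TAL1 transcript, against 79.4% of MYB-positive wells with globin and 11.1% of neutrophil-gene wells. The same shares for LMO2 were 46.7%, 51.9% and 6.67%. Most members thus carried TAL1 and most carried LMO2, while the third marker of the label, MYB, was set by the limits. No difference in TAL1 or LMO2 from the wells with globin passed the test.

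**Figure D1:**
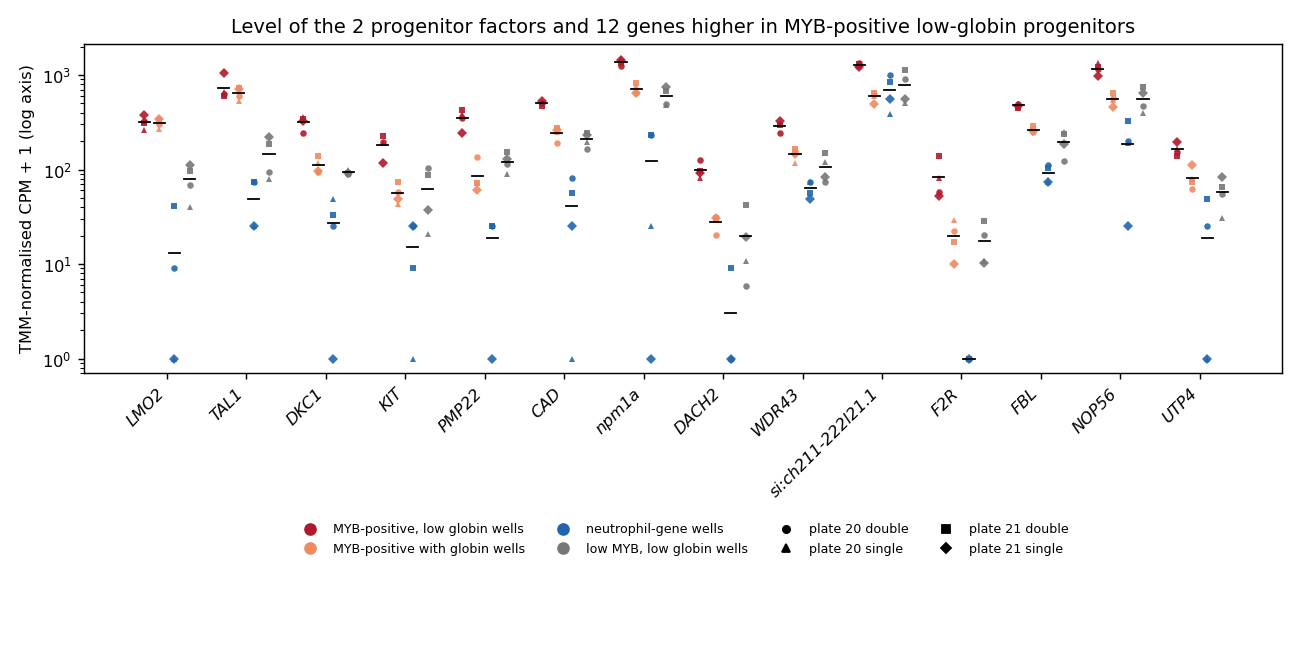
TMM-normalised CPM plus 1 on a log axis for TAL1, LMO2 and 12 genes higher in members than in all 3 other groups. Points are the 4 sums of plate and sort class in each group, bars are group means, and TAL1 and LMO2 overlap between members and MYB-positive wells with globin while the points of members for the other 12 genes lie above all others.

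Compared with MYB-positive wells with globin, members had more transcripts of genes that build ribosomes, of the receptor KIT and of a few genes of other function, and fewer of mature red cell genes. Of 6053 genes tested, 164 passed at an edgeR adjusted p under 0.05, which is 2.71% of genes. They were 78 higher genes (1.29%) and 86 lower genes (1.42%), and 161 had the same sign on both plates. The 4 sums of members did not overlap those of the wells with globin for 149 of the 164 genes, and for 13.4% of all genes tested. With the sort classes summed together, 69 were higher and 49 lower. With 0.5% as the globin limit the count was 56, and DESeq2 called 259. Without the 15 wells over 5% muscle or epidermis it was 483, and without the largest well alone it was 318.

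Ribosome biogenesis genes were the list with the most higher genes. Of 21 tested members of the 23 genes listed, 7 were higher and none lower, with a median log2 fold of 0.93, against −0.04 over all genes, and 19 positive folds. Their summed level was 9446 to 10272 CPM in members, against 5519 to 7428 CPM in the wells with globin. DKC1 (ENSDARG00000016484), the pseudouridine synthase of small nucleolar and telomerase RNA particles, had 244, 360.2, 341 and 323 CPM in members, against 93.99, 117, 138 and 95.9 CPM in wells with globin. All 4 sums of members lay above all 4 others, with a log2 fold of 1.51 ± 0.23 (edgeR adjusted p = 0.000778). Nucleophosmin, npm1a (ENSDARG00000014329), averaged 1383 ± 109 CPM in members and 714 ± 86.8 CPM in wells with globin, a log2 fold of 0.95 ± 0.19 (edgeR adjusted p = 0.0078). Nucleolin, ncl, averaged 1117 ± 124 and 549 ± 40.2 CPM in the same order (1.03 ± 0.19, edgeR adjusted p = 0.00513).

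The other 4 called genes of that list act in nucleolar RNA modification and assembly. The ribosomal RNA methyltransferase gene nop2 averaged 156 CPM in members and 66.8 CPM in wells with globin (log2 fold 1.27 ± 0.27). Fibrillarin, FBL, the methyltransferase of box C/D particles, averaged 475 ± 21.2 and 263 ± 16.8 CPM (0.86 ± 0.20). Its partner NOP56 (ENSDARG00000012820) averaged 1172 ± 150 and 557 ± 75.7 CPM (1.09 ± 0.25). The call of FBL was lost under several other settings, among them the classes summed together (edgeR adjusted p = 0.0808). The nucleolar assembly gene nolc1 had the smallest margin, at 188 against 93.2 CPM, with an edgeR adjusted p of 0.0486. MYC (ENSDARG00000007241), a driver of ribosome production, averaged 281 ± 56.5 and 184 ± 36.4 CPM and did not pass (0.64 ± 0.22, edgeR adjusted p = 0.127). ODC1, a MYC target that makes polyamines, averaged 306 and 319.8 CPM. With the globin limit at 0.5%, none of 20 tested genes of the list passed, though 18 had positive folds, at a median of 0.46. Without the muscle and epidermis wells 13 of 20 were higher, where 206 of all 5302 genes tested were higher.

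KIT (ENSDARG00000043317), the receptor for stem cell factor on blood progenitors, stood at 197, 191, 226 and 116 CPM in members. It stood at 57.5, 42.7, 73.7 and 47.9 CPM in wells with globin, below every sum of members, and the log2 fold was 1.75 ± 0.26 (edgeR adjusted p = 0.000667). After thinning to 2500 transcripts, 44.6% of members held a KIT transcript (95% Clopper-Pearson interval 34.2 to 55.3), against 9.92% of wells with globin (5.39 to 16.4) and 2.22% of neutrophil-gene wells. Unthinned, the shares were 75%, 41.98% and 7.41%. PMP22, a membrane protein gene best known from myelin, had 352, 389.9, 423 and 245 CPM in members, against 136, 71.1, 71.2 and 59.9 CPM in wells with globin (2.12 ± 0.26, edgeR adjusted p = 7.07e-05).

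The gene cd34, which marks blood stem cells and vessels in mammals, was at 54.1, 25.4, 76.2 and 12.9 CPM in members, against 1.92, 3.56, 11.05 and 2.997 CPM in wells with globin. These were 65 and 12 transcripts in all, and the log2 fold was 2.91 ± 0.59 (edgeR adjusted p = 0.01). The call of cd34 was lost with globin limits of 0.5% and 2% (log2 folds 2.70 and 2.29, edgeR adjusted p = 0.0684 and 0.0704). Only 25 of 92 members held a cd34 transcript, and 5 wells held 44.3% of its sum. MLLT3, which helps maintain human blood stem cells, went the other way, with 3 transcripts in members and 53 in wells with globin (−4.27 ± 0.91, edgeR adjusted p = 0.0157). The stem cell factor gene hlfa averaged 57.2 ± 12.8 and 86.4 ± 16.7 CPM and did not pass (−0.55, edgeR adjusted p = 0.359). Of 6 tested of 15 genes on the stem cell maintenance list, KIT and cd34 were higher and MLLT3 lower. The 10 tested of 15 progenitor transcription factors held no call in this comparison. The stem cell factor gene gata2b had 10 transcripts in members, 0 in wells with globin, 0 in neutrophil-gene wells and 2 in low-MYB low-globin wells, too few to be tested.

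Red cell genes differed in how far their level in members lay from that in wells with globin. The erythroid list held 10 lower and no higher genes of 18 tested against wells with globin, at a median of −0.81, which is a description because this list follows the globin limit. RHAG, a membrane channel protein gene, and EPOR averaged 1651 ± 90.1 and 258 ± 50.9 CPM in members, against 1756 ± 169 and 279 ± 28.7 CPM in wells with globin. The factors klf1 and gata1a averaged 291 ± 41.7 and 409 ± 72.9 CPM in members, against 486 ± 48.02 and 586 ± 26.5 CPM. SLC4A1 (ENSDARG00000012881), the red cell anion exchanger gene, averaged 2814 ± 396 CPM in members, against 5959 ± 677 CPM. The gene alas2, which starts heme synthesis in red cells, averaged 114 ± 51.5 CPM in members, against 1245 ± 167 CPM. Thinned to 2500 transcripts, 14.1% of members held an alas2 transcript, against 83.2% of wells with globin and 15.6% of neutrophil-gene wells. In low-MYB low-globin wells it was 22.7%. Unthinned, it was 57.6% of members and 44.4% of neutrophil-gene wells, which were shallower, and whether the alas2 of members is background was not tested. For RHAG the thinned shares of members, wells with globin and neutrophil-gene wells were 91.3%, 99.2% and 24.4%, and for klf1 50%, 64.9% and 4.44%. For gata1a they were 52.2%, 65.6% and 31.1%. For SLC4A1 they were 97.8%, 100% and 86.7%, so its transcripts were also found in most neutrophil-gene wells.

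Cell division genes were present, and most had negative folds that did not pass. Of 26 tested genes of DNA replication, none passed, with a median log2 fold of −0.32 and 1 positive fold. Thymidylate synthase, TYMS, was nearest to the threshold, at 102 ± 19.9 CPM in members and 207 ± 61.1 CPM in wells with globin (−1.05, edgeR adjusted p = 0.0507). Of 30 tested genes of the division phase, 3 had positive folds, and the list median was −0.50. Only cdca8, a subunit of the chromosomal passenger complex, passed, lower at 73.8 ± 12.8 against 157 ± 24.8 CPM (−1.09 ± 0.26, edgeR adjusted p = 0.0213). Without the muscle and epidermis wells, 5 of 26 replication and 6 of 29 division genes were lower and none higher. Over all 5302 genes tested in that setting, 277 were lower and 206 higher. With the classes summed together neither list held a call. Of 31 tested chromatin and splicing genes, hmga1a and NUCKS1, both genes of DNA-binding chromatin proteins, were higher, by 0.83 ± 0.17 and 1.84 ± 0.39. Of 9 tested thrombocyte genes, the tubulin gene tubb1 was lower, at 214 ± 40.5 against 477 ± 46.02 CPM, and the other 8 did not pass. Of the 13 listed, 4 were at 0 in members, itga2b and mpl among them. Transcripts of the list were found in 86 of the 92 members. Against low-MYB low-globin wells 4 of the 9 were higher and 2 lower, and against neutrophil-gene wells 5 were higher and 2 lower.

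**Figure D2:**
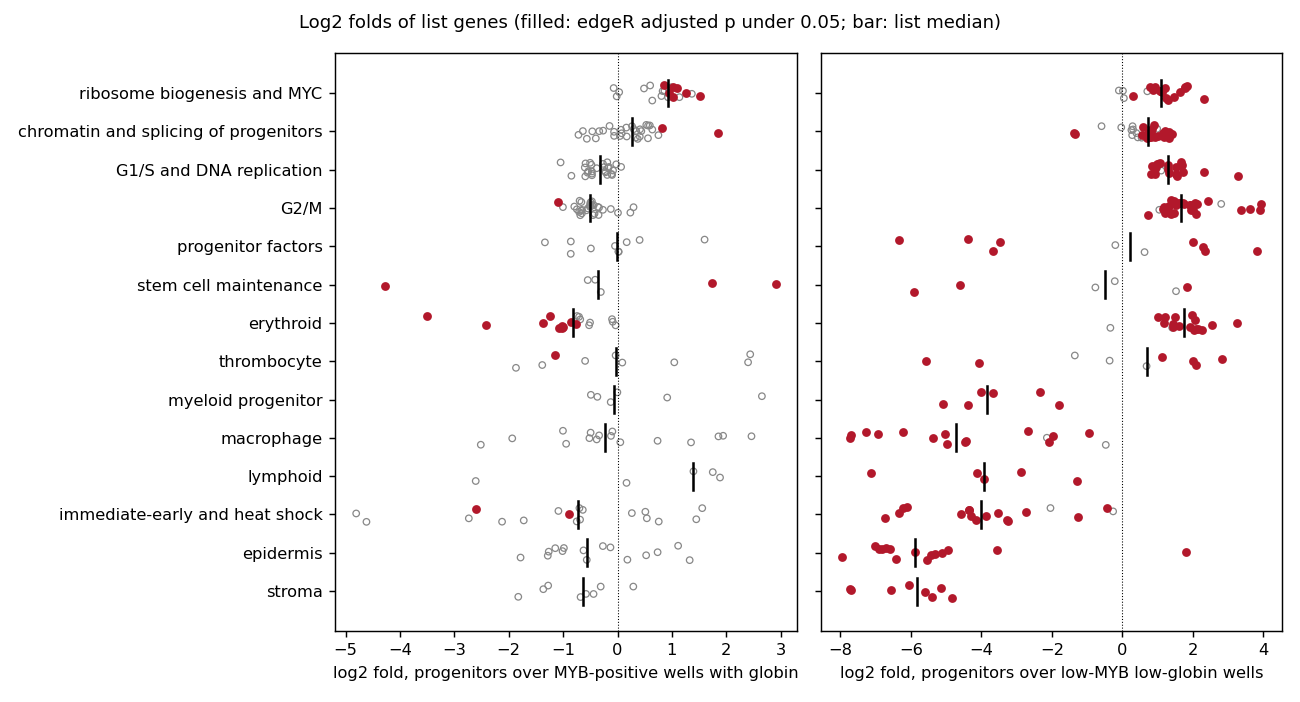
Log2 folds of tested genes of 14 lists in members over MYB-positive wells with globin (left) and over low-MYB low-globin wells (right), with 1 point per gene, filled where the edgeR adjusted p was under 0.05, and a bar at the list median. Ribosome biogenesis lies right of 0 in both panels, while replication and division genes lie near or left of 0 on the left and right of 0 on the right.

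Over members and wells with globin together, the ribosome genes were lower at a higher globin share on each plate, but not within members alone. Spearman's rho between globin share and the summed ribosome biogenesis list was −0.61 over 103 wells of plate 20 and −0.64 over 120 wells of plate 21. It was −0.50 and −0.53 for KIT, 0.89 and 0.92 for the erythroid list and 0.39 and 0.42 for the replication list. Within members alone, over 45 and 47 wells, rho between globin share and the ribosome list was 0.25 and 0.07, and for KIT −0.09 and 0.09. For the erythroid list it was 0.61 and 0.44, and for the replication list 0.09 and 0.10. These are descriptions, since wells of a plate share a library and all lists share the depth of a well. Depth correlated with the ribosome list at 0.38 and −0.03 over all MYB-positive wells, and with the globin share at −0.17 and 0.13.

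**Figure D3:**
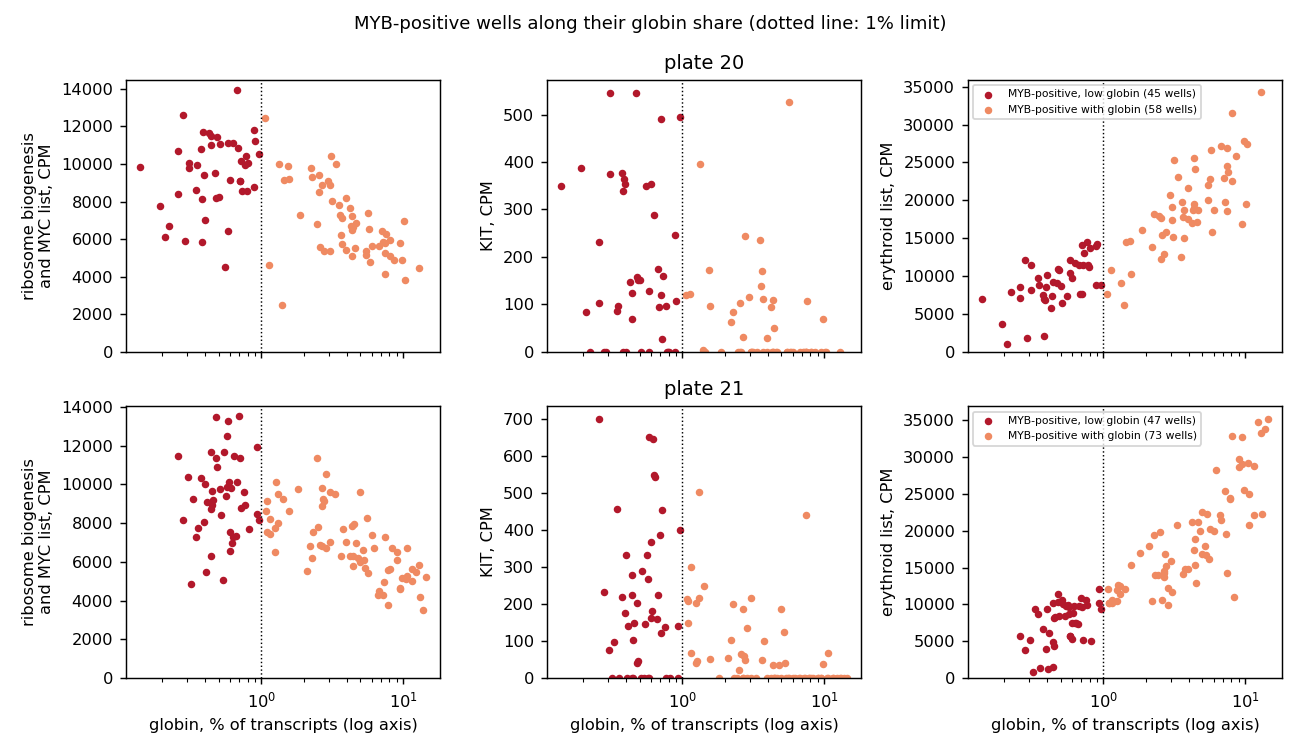
Ribosome biogenesis list, KIT and erythroid list in CPM of single wells against the globin share in percent of transcripts on a log axis, for members (left of the dotted 1% line) and MYB-positive wells with globin (right of it), by plate. Over both groups, which the globin limit separates, the ribosome list falls and the erythroid list climbs along the globin share, with Spearman's rho of −0.61 and 0.89 on plate 20. Within members alone rho for the ribosome list was 0.25 on plate 20 and 0.07 on plate 21.

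Against neutrophil-gene wells, members had more red cell, replication, division and ribosome genes and fewer myeloid genes. The test called 2941 genes (48.6%), of which 1861 were higher (30.7% of genes tested) and 1080 lower (17.8%). The median over all genes was 0.65 on the log2 scale, and it was 0.38 with size factors of DESeq2 and 0.23 with the classes summed together. The share of higher calls was then 54.7% and 49.97%, against 63.3%, so the split between higher and lower rests on the scaling. Neutrophil-gene sums of single wells held 7 and 5 wells. The list medians that follow are to be read beside that median of 0.65, which was not subtracted. The erythroid list had a median of 3.14 with 16 of 18 genes higher, and 2.72 with genes at 0 in neutrophil-gene wells set to their lower bound. The ribosome list had a median of 3.59 with 18 of 21 higher, and ODC1 was lower, at 306 against 771 CPM. The replication list had 22 of 26 and the division list 24 of 30 genes higher. These values also moved with the classes summed together. The erythroid and ribosome medians were then 2.35 and 2.24, with 16 of 19 and 17 of 21 genes higher. Of the replication list 20 of 28 and of the division list 15 of 30 genes were then higher. Over all 7047 genes tested in that setting, 1489 were higher and 1491 lower. F2R, the thrombin receptor gene, was at 56.6, 80.5, 139.6 and 51.6 CPM in members, a total of 112 transcripts. It was at 0 in all 4 sums of neutrophil-gene wells, so its level in members was at least 9.50-fold higher, with the floor of 3 counts taken over the group. The myeloid list had 5 of 6 tested genes lower, at 60.8 to 499.6 CPM summed in members, against 4110 to 8271 CPM. The 10 of 11 lower neutrophil genes follow the limit on neutrophil genes and are a description.

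The low-MYB low-globin wells were a mixture that held leukocyte, skin and connective tissue genes, and members had far fewer of all of these. The test called 2388 genes (39.5%), 1122 higher (18.5%) and 1266 lower (20.9%), around a median of 0.12. With a globin limit of 0.5% it called 1365, and among compared wells of at least 3000 transcripts, chosen because shallow wells can fall under 3 MYB transcripts, 2064. Summed epidermis genes stood at 344 to 429 CPM in members, against 6004 to 45914 CPM, with 14 of 15 tested genes lower. Stroma genes stood at 110.4 to 251 CPM, against 2377 to 23986 CPM, with 8 of 8 lower, and 10 of the 18 listed were at 0 in members. Macrophage genes were lower for 14 of 16, lymphoid for 5 of 5 and myeloid for 6 of 6 tested genes. Endothelial genes reached 13.2 to 28.4 CPM in members, with 8 of the 16 listed at 0, against 56.8 to 1238 CPM. Only 1 of the 16 could be tested, and it did not pass.

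Members exceeded these wells in red cell, growth and division genes, although globin was low in both. Of 18 erythroid genes tested, 16 were higher and none lower, with a median of 1.76. RHAG averaged 1651 ± 90.1 CPM in members and 442 ± 95.96 CPM in low-MYB low-globin wells (1.91 ± 0.18, edgeR adjusted p = 6.83e-08). The factor klf1 averaged 291 ± 41.7 and 49.1 ± 26.6 CPM (2.54 ± 0.29), EPOR 258 ± 50.9 and 61.4 ± 10.3 CPM (2.07 ± 0.26), and gata1a 409 ± 72.9 and 153 ± 43.6 CPM (1.42 ± 0.22). SLC4A1 averaged 2814 ± 396 and 1236 ± 305 CPM, and the sums of members lay above all others for these 5 genes, where 31.7% of all genes tested did not overlap in either direction. In contrast alas2 averaged 114 ± 51.5 and 140 ± 36.2 CPM and did not pass (−0.34 ± 0.24, edgeR adjusted p = 0.253). Of the division list 28 of 30 and of the replication list 21 of 26 genes were higher, at medians of 1.67 and 1.29. Of the ribosome list 17 of 21 were higher, MYC (ENSDARG00000007241) among them at 281 ± 56.5 and 58.2 ± 22.4 CPM (2.33 ± 0.28, edgeR adjusted p = 2.15e-06).

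Progenitor factors split in that comparison. Of 10 tested, TAL1, LMO2, the GATA cofactor gene ZFPM1 and GFI1B, a transcriptional repressor gene active in red cell and thrombocyte lineages, were higher. ZFPM1 averaged 75.97 ± 33.6 and 17.9 ± 11.6 CPM (2.29 ± 0.49), and GFI1B 19.9 ± 13.5 and 2.37 ± 2.74 CPM (3.81 ± 1.13, edgeR adjusted p = 0.0123). SPI1, RUNX3, FLI1 and GATA2 were lower. SPI1, the myeloid master factor gene, averaged 3.79 ± 3.57 CPM in members and 113 ± 73.8 CPM in the other wells (−4.37 ± 0.62), and GATA2 was at 0 in members and at 39.7 CPM in the others. The level of cd34 was 42.2 ± 28.5 and 47.3 ± 16.8 CPM and did not pass (−0.22 ± 0.50, edgeR adjusted p = 0.755).

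Across the 3 comparisons, which share the sums of members, 44 genes were higher in members each time (0.727% of those tested) and 6 were lower (0.0991%). The 12 named genes with the smallest p-values among the higher ones included DKC1, KIT, PMP22, npm1a, FBL, NOP56 and F2R. Their sums in members lay above all sums of the other 3 groups for all 12, which were chosen by their p-values. Over all genes tested, the sums of members did not overlap those of wells with globin for 13.4%, of neutrophil-gene wells for 40.2% and of low-MYB low-globin wells for 31.7%. Another was CAD, the enzyme gene that starts pyrimidine synthesis, with 507, 500.1, 465 and 529 CPM in members. CAD averaged 243 ± 38.3 CPM in wells with globin, 40.03 CPM in neutrophil-gene wells and 209 ± 34.8 CPM in low-MYB low-globin wells, with log2 folds of 1.05 ± 0.21 over the first and 1.27 ± 0.22 over the last. WDR43 and UTP4 belong to the particle that matures the small ribosomal subunit. WDR43 averaged 291 ± 35.1 CPM in members, against 145 ± 20.5, 62.1 and 105 ± 33.9 CPM in the groups in the same order. UTP4 averaged 163 ± 23.1 CPM, against 80.7 ± 21.3, 18.01 and 57.5 ± 22.2 CPM. With the classes summed together, the calls of WDR43 and UTP4 over wells with globin were lost (edgeR adjusted p = 0.104 and 0.0905). DACH2, a dachshund family transcription cofactor gene, averaged 97.9 ± 19.4 CPM, against 26.8 ± 5.10, 2.002 and 18.6 ± 16.2 CPM. The gene model si:ch211-222l21.1 averaged 1280 ± 49.3 CPM, against 592 ± 67.7, 695 ± 277 and 776 ± 299 CPM.

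Of the 6 lower genes 5 had names. HSP90AA1 (ENSDARG00000024746), a heat shock chaperone gene, stood at 364, 220.4, 427 and 103 CPM in members, against means of 482 ± 67.5 CPM in wells with globin, 1672 ± 434 CPM in neutrophil-gene wells and 2544 ± 662 CPM in low-MYB low-globin wells. Its log2 fold over wells with globin was −0.89 ± 0.20 (edgeR adjusted p = 0.0189), and it was −0.35 when the plate 21 layout was read down columns. The chaperone gene hsp70.3 had 9.84, 16.9, 12.7 and 0 CPM in members, against means of 99.5, 112 and 966 CPM, and its fold over neutrophil-gene wells was 0.90 on plate 20 alone. PTGIS, the prostacyclin synthase gene, averaged 8.54 CPM, against 34.7, 36.01 and 103.5 CPM, and the phosphatase gene ptp4a2b 23.4 CPM, against 66.3, 134 and 192 CPM. The proton pump subunit gene ATP6V1G1 averaged 284 ± 33.3 CPM, against 476.5 ± 51.8 CPM in wells with globin, with an edgeR adjusted p of 0.0491. That call was lost under 8 other settings, with adjusted p from 0.0563 to 0.164, among them DESeq2 size factors, no plate block and the plate 21 layout down columns, and the call over neutrophil-gene wells was lost with no filter on low counts (edgeR adjusted p = 0.242). Of the 24 named genes called against wells with globin, 17 were lost with the globin limit at 0.5%, but KIT, PMP22, F2R and MLLT3 were among those kept. With the sort classes summed together 8 of the 24 were lost, namely ATP6V1G1, FBL, HSP90AA1, PTGIS, UTP4, WDR43, cdca8 and ptp4a2b.

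From well to well, members varied less in the ribosome list than in the erythroid, replication and division lists. The ribosome list ranged over the 92 wells from 4537 to 13920 CPM of the well, with a median of 9553. The erythroid list ranged from 862 to 14461 (median 8731), the replication list from 420.3 to 9470 (3494) and the division list from 159.8 to 10318 (3050). The summed myeloid list was at 0 in 31 wells and reached 4713 CPM, and 5 wells held 55.6% of its sum. Lymphoid genes were at 0 in 43 wells, and 5 wells held 48.6%. CCR9, a chemokine receptor gene of thymus-homing cells, was found in 11 wells, and CXCR4, the receptor that holds progenitors in their niche, in 78 wells. Thinned to 2500 transcripts, 55.4% of members held CXCR4, against 22.1% of wells with globin, 71.1% of neutrophil-gene wells and 43.3% of low-MYB low-globin wells.

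A group of 9 members, chosen after the values were seen by a myeloid list of 1000 CPM or more, went against the label, since most lacked TAL1. All 9 were double wells, 4 on plate 20 and 5 on plate 21, and so were 62 of the other 83 members. The class of the 5 wells on plate 21 rests on the assumed numbering of that plate. Their erythroid list had a median of 1501 CPM (862 to 5054), against 8853 CPM (3846 to 14461) in the other 83 members. TAL1 had a median of 0 in the 9 wells and of 604 CPM in the others, and LMO2 49.99 and 247 CPM. CEBPB, a myeloid transcription factor gene that is on the list which chose the 9 wells, so that its level is a description, had a median of 2099 CPM (1160 to 3592) in the 9 wells and of 0 (0 to 272) in the others. The lymphoid list had medians of 978 CPM and 0, and cd34 of 105.6 CPM and 0. MYB was similar, at 580.0 and 636 CPM, and the globin share was 0.356 and 0.536%. Without these 9 wells, 148 genes were called against wells with globin, of which 139 were among the 164, and 7 of 21 ribosome genes passed as before.

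**Figure D4:**
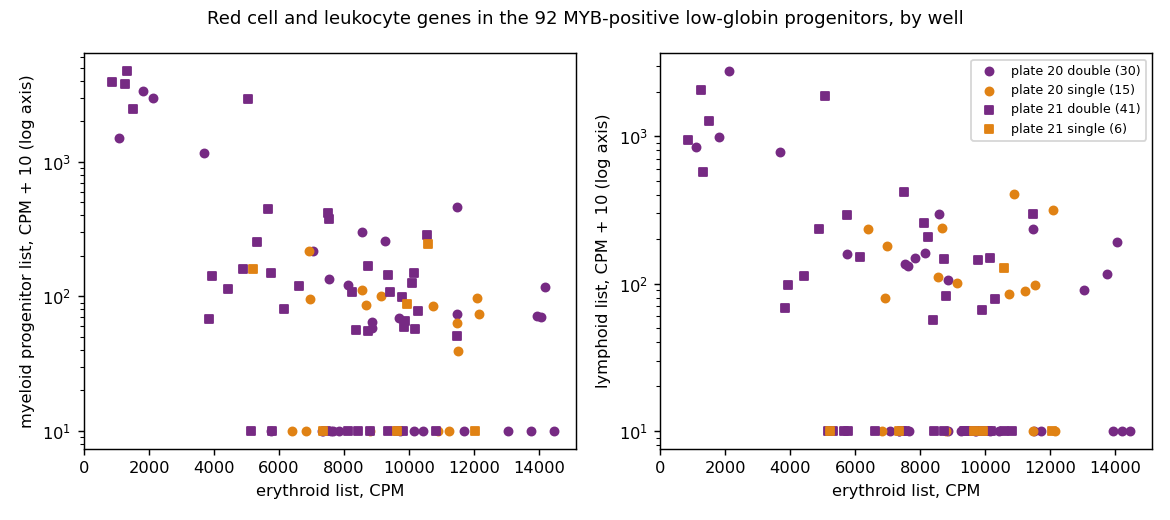
Summed myeloid progenitor (left) and lymphoid (right) lists, in CPM plus 10 on a log axis, against the erythroid list in CPM for each of the 92 members, by plate and sort class. The 9 double wells at upper left in the myeloid panel hold 1160 to 4713 CPM of myeloid genes and at most 5054 CPM of erythroid genes.

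The share of members among kept wells was higher in the double class on both plates, by an amount that on plate 21 rests on the assumed numbering of its wells. On plate 20, 30 of 189 double wells were members, 15.9% (95% Clopper-Pearson interval 10.97 to 21.9), against 15 of 111 single wells, 13.5% (7.77 to 21.3). On plate 21, 41 of 186 double wells were members, 22.04% (16.3 to 28.7), against 6 of 89 single wells, 6.74% (2.51 to 14.1). The difference was 2.36 points on plate 20 and 15.3 points on plate 21, with a mean of 8.83, and intervals cover counting error only. With 2 plates no exact permutation p can go below 0.5, so no test was made. When the plate 21 layout was read down columns, members on that plate were 30 of 179 double wells, 16.8% (11.6 to 23.1), against 14 of 94 single wells, 14.9% (8.39 to 23.7). These intervals overlap, and the mean difference over both plates was then 2.11 points. MYB-positive wells with globin were 18.5% of double and 20.7% of single wells on plate 20, and 25.8% and 28.1% on plate 21.

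**Figure D5:**
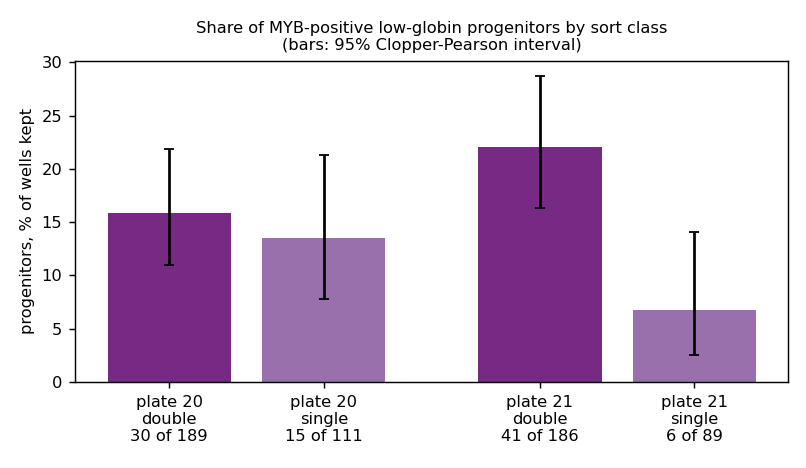
Members as a percentage of kept wells by plate and sort class, with 95% Clopper-Pearson intervals and the number of wells under each bar. With plate 21 numbered along rows, the intervals of double and single wells overlap on plate 20 and do not on plate 21, where the shares are 22.04 and 6.74%, while with its layout read down columns they are 16.8 and 14.9% and overlap.

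No gene passed between double and single members in the main fit, which shares its spread with the sums of the other groups. edgeR called 0 of 6053 genes (0%), with 232 (3.83%) at an unadjusted p under 0.05 and a lowest adjusted p of 0.346, and DESeq2 called 0. Whether the class difference in members differed from that in the other 4 groups gave 0 genes too, with 334 (5.52%) at an unadjusted p under 0.05, a lowest adjusted p of 0.831 and 0 calls by DESeq2. The 6 genes with the smallest p-values on the higher side were LCP1, CEBPB, tmsb4x, CHAC1, crema and HSP90AA1. LCP1, which bundles actin in leukocytes, stood at 130.4 and 178 CPM in double members of plates 20 and 21, against 38.1 and 0 CPM in single members (2.62 ± 0.52, edgeR adjusted p = 0.346). CEBPB stood at 133 and 402 CPM in double members, against 25.4 and 64.5 CPM (2.86 ± 0.68). The actin-binding gene tmsb4x stood at 595 and 922 CPM, against 292 and 336 CPM (1.28 ± 0.30), and CHAC1, a glutathione-degrading enzyme gene, at 214 and 248 CPM, against 76.3 and 90.3 CPM (1.48 ± 0.35). None of these differences passed with the limits as given. Without the 15 muscle and epidermis wells 5 genes passed, among them LCP1 and CEBPB (edgeR adjusted p = 0.00239 for both), crema (0.0038) and tmsb4x (0.00846). None of these 15 wells was a member, so the members compared were the same and only the other sums of the shared fit changed. The folds of LCP1 and CEBPB were then 2.52 and 2.88, with 5302 genes tested. With 2 MYB transcripts as the limit 8 passed, among them LCP1, CEBPB and tmsb4x (edgeR adjusted p = 0.00675 for each), crema (0.0111) and HSP90AA1 (0.0482). The folds rest on the assumed numbering of plate 21. With that layout read down columns they were 0.46 for LCP1, 0.96 for CEBPB, 0.02 for tmsb4x, 0.30 for CHAC1, −0.19 for crema and −0.73 for HSP90AA1, each with an edgeR adjusted p of 1. All 9 myeloid-gene members are double wells, and without them the folds of tmsb4x and LCP1 were 0.52 and 1.78. On the lower side, TXNIP, a regulator of glucose uptake and redox state, stood at 68.9 and 95.2 CPM in double members, against 195 and 245 CPM in single members (−1.37 ± 0.40, edgeR adjusted p = 0.882), and its fold was −0.58 with the layout down columns. All 17 lists held 0 calls between the classes.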

How the data were processed

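Single-cell CEL-seq2 libraries of 2 plates were analysed. Per the submitters' processing notes, BWA was the aligner and Zv9 the genome. No source used here names a counting tool or filter. Values as deposited are expected counts: molecular identifier counts per gene and well corrected, as the values of all 384 well columns per plate show to within 1%, for collisions in a pool of 4096, called transcripts here. The authors' layouts, per the file headers, gave sort classes. Spike-ins were left out of depths. Of 19955 gene IDs, 15742 (78.9%) had names, many of them of human genes, and near-identical copies can share reads. No genome was used here, and kdrl and runx1 were not analysed here.

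Wells were grouped by the limits given above and summed per plate, group and sort class. Sums were rounded and tested with edgeR 4.0.16 in R 4.3.3 (TMM, filterByExpr, quasi-likelihood F test, two-sided, plate as a block, 9 residual degrees of freedom, Benjamini-Hochberg over 6053 genes). SEs were obtained as the absolute log2 fold over the square root of F. Contrasts between groups weight the classes equally. Doublets, which sorting into wells does not exclude, were not called. Shares of wells with a transcript were computed with each well thinned to 2500 transcripts, which left out 9 neutrophil-gene and 28 low-MYB low-globin wells. DESeq2 1.42.0, other limits, scalings and filters were alternatives.

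Members, gene lists, tests and the naming rule were chosen with earlier results of these data known. Named genes were MYB, LMO2 and TAL1, the 12 named genes higher and up to 8 lower in members in all 3 comparisons with the smallest largest p, 6 per direction by p between classes, and up to 4 of each list. Other list genes named were chosen after their values were seen. Samples share replicate numbers only as plates, and the plate was the block of the main fit because double and single wells of a number share a plate. Intervals are 95% and cover counting error only.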

Additional observations from a re-analysis of the deposited data

Results flagged for a closer look

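Undefined wells, which entered no comparison, numbered 21, and 16 of them held at least 500 transcripts. Of these, 1 well met the same limits as the members, which is a signal in wells outside the comparisons. It was on plate 20 and held 10440 transcripts, 20.1 of MYB, with a globin share of 0.596%.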

How the results depend on the processing

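Against MYB-positive wells with globin the count of 164 genes was 259 with DESeq2, 252 with 2 MYB transcripts as the limit, 56 with a globin limit of 0.5%, 274 of 19689 genes with no filter on low counts, 483 without wells over 5% muscle or epidermis, 318 without the largest well and 9 of 360 genes with wells thinned to 500 transcripts. Thinning also left 171 genes against neutrophil-gene wells and 124 against low-MYB low-globin wells, and it tests fewer genes by construction; the globin limit of 0.5% gave 1365 against the low-MYB wells. The cause of the other shifts was not tested. Between sort classes in members, where no gene passed, 8 passed with 2 MYB transcripts, 1 with globin under 0.5%, 3 with globin under 2%, 11 with no filter, 5 without muscle and epidermis wells and 1 without the largest well, and for the class difference against other groups 2 passed with globin under 2% and 2 with no filter. The muscle, epidermis and largest wells included no member, so leaving them out changed only the other sums of the shared fit.

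Without the replicate block, which is the plate, the counts were 140, 2971, 2347, 0 and 0, of which 136, 2919 and 2307 genes were shared. Leaving out a plate gave class differences in the share of members of 2.36 and 15.3 points, and for genes only folds within 1 plate, with no test. That of hsp70.3 against neutrophil-gene wells was then 0.90 on plate 20 and −6.14 on plate 21.

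Signs that turned were mostly of folds that had not passed. LMO2 against wells with globin had −0.0188 with wells of at least 250 transcripts, −0.0733 with 2 MYB transcripts, −0.19 with no filter, −0.0590 without muscle and epidermis wells, −0.0528 with the plate 21 layout down columns, −0.00706 with whole counts, −0.0645 without the largest well and −0.0188 with classes summed together. TAL1 had −0.27 with globin under 0.5%, −0.0524 with no filter and −0.00215 with classes summed. NOP56, called in the main comparison, had −0.20 against wells with globin and −0.0285 against low-MYB wells when thinned, in 1 draw. With the layout down columns, double over single folds were −0.73 for HSP90AA1, −0.19 for crema and 0.42 for rps6kb1a. The class difference against other groups was then −0.39 for HSP90AA1, −0.11 for LCP1, −0.48 for crema, −0.15 for tmsb4x, −0.15 for CHAC1, 0.00341 for GLE1, 0.59 for rps6kb1a and 0.10 for atox1. FLI1 against wells with globin was 0.48 with that layout and 0.89 with classes summed. Without the 9 myeloid-gene members, which were chosen by a list that holds CEBPB, CEBPB had −0.41 and a class difference of −1.18, and tmsb4x a class difference of −0.0772; thinned, CEBPB had −0.29 and −1.36. Of all other repeats for called named genes, 1634 kept the call and 79 lost it, most of them against wells with globin. The count pools 24 named calls against those wells, 19 against neutrophil-gene wells and 56 against low-MYB low-globin wells. Up to 17 of the 24 were lost under a setting, against at most 2 of the 19 and 6 of the 56.

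Depth limits single members of plate 21, where 6 wells put the floor at 39.7 CPM. Whole counts, the largest well, summed classes and the 9 wells were chosen after seeing the data.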
